A study of Rattus norvegicus with 16 samples.

Results

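The genes described here carry a cell through its division: 48 rat genes for DNA replication, cyclins and their kinases, mitosis and the transcription factors that govern them, listed by name. Of these, 44 had a probe on the array whose transcript accession matched the gene, out of 15159 genes named in that way, and each was represented by its brightest probe. The proliferation markers Mki67 and Top2a, the helicase subunit Mcm5 and the spindle checkpoint kinase Bub1b had no matched probe here and are named only. All 44 probes were well above background on all 16 arrays.

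Transcript levels were measured on 1-color Agilent arrays in normal tissue of the distal colon from 16 male (ACIxF344)F1 rats, 1 array per rat, all killed at 97 days of age. The rats were either wildtype for Apc or Pirc/+, which carries a nonsense mutation in 1 Apc allele of every cell and forms colonic adenomas. Each genotype was left untreated or was given 4% dextran sodium sulfate (DSS), a polymer that injures the colonic epithelium and inflames the colon, in the drinking water from day 40 to 47 and again from day 54 to 61. There were 4 rats in each of the 4 groups, so that rats 13, 17, 21 and 25 were untreated wildtype, 14, 18, 22 and 26 DSS-treated wildtype, 11, 15, 19 and 23 untreated Pirc, and 12, 16, 20 and 24 DSS-treated Pirc; the values below follow that order.

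To divide, a cell loads the MCM helicase at origins in G1 with the help of Cdc6 and Cdt1. The G1 cyclins and their kinases then release the E2F transcription factors, which raise the transcripts for the helicase, the replication fork and nucleotide synthesis. Later, the B-type cyclins with Cdk1 and a set of spindle and chromosome proteins carry the cell through mitosis, and many of their genes are read under the DREAM and MuvB complexes with B-Myb and FoxM1. In the colon, dividing cells sit in the lower part of the crypt, and Apc restrains the Wnt signal that keeps them dividing. In bulk tissue, a larger share of dividing cells and more transcript per cell cannot be told apart.

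The promoters of the 2 classes of members differ in their letters, and 4 are shown because their genes are among those enhanced in the comparisons that follow. Each line holds the 150 bases before the start of the gene, 5' to 3' on the strand of the gene, from the RefSeq table for build GRCr8. Gins1 (a subunit of the GINS complex of the helicase) lies at chr3:160184770-160184919 on the plus strand, Tyms (thymidylate synthase) at chr9:120776084-120776233 on the minus strand, Birc5 (survivin, of the chromosomal passenger complex) at chr10:103571996-103572145 on the plus strand and Kif23 (a kinesin of the midzone spindle) at chr8:71320585-71320734 on the minus strand. Capitals mark the matches searched on both strands: an E2F site (TTTCCCGC or TTTGGCGC), the cell cycle homology region CHR (TTTGAA) and the CCAAT box. In Gins1 the E2F letters are read from both strands and overlap.
Gins1: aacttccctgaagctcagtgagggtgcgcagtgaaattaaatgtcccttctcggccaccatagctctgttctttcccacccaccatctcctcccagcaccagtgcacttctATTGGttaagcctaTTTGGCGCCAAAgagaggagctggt
Tyms: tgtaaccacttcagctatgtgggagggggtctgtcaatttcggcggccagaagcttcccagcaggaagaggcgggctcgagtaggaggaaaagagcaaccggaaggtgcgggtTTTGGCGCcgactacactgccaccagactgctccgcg
Birc5: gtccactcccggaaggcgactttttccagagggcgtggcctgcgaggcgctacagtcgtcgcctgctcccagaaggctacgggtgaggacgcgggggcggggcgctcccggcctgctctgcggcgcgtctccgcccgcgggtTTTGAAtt
Kif23: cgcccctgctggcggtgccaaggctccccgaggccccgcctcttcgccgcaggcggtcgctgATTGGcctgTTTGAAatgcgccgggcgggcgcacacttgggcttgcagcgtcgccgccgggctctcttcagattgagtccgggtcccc

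Promoters of 32 of the 44 members were in the table, each from 250 bases before to 50 after the start. An E2F match stood in 8 of the 19 promoters of the licensing, fork, nucleotide and G1/S genes (42.1%) and in 0 of the 12 promoters of the G2/M and spindle genes, beside 1.53% of all 27457 promoters in the table and 2.27% of the 12389 of genes named by a probe. The 8 were Cdt1, Gins1, Mcm3, Mcm6, Mcm7, Tyms, Pola1 and Pole. A CHR stood in 8 of the 12 G2/M and spindle promoters (66.7%) and in 1 of the 19 others (5.26%), that of Mcm2, beside 18.1% of all promoters. All 8 of these mitotic promoters, Ccnb2, Cdk1, Birc5, Cdc20, Cenpf, Kif23, Nusap1 and Plk1, also held a CCAAT, a pair of motifs found in 7.25% of all promoters. The CCAAT of Birc5 lies further from the start than the printed stretch reaches. A match describes letters and is not evidence of a bound site. The members that passed in the comparisons below were counted by these letters. For Pirc over both treatments these were 4 of the 8 with an E2F match and 9 of the 16 with neither an E2F match nor the CHR and CCAAT pair, and among DSS-treated rats 4 of 8 and 7 of 16. Of the 8 with the pair, 0 passed in either. For DSS in Pirc rats 0 of 8, 2 of 8 with the pair and 1 of 16 passed. DSS over both genotypes gave 0 of 8, 1 of 8 with the pair (Kif23) and 0 of 16. Of all probes, 9.26%, 9.47%, 8.14% and 10.2% were higher in these comparisons, in that order. Without DSS-treated Pirc rats 12 and 20, Gins1 and Mcm7, both with an E2F match, still passed for Pirc over both treatments. Cdc6 and Mcm4 did too, and Rrm2 for DSS over both genotypes, but these had no promoter in the table. No member passed in the other comparisons.

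**Figure D1:**
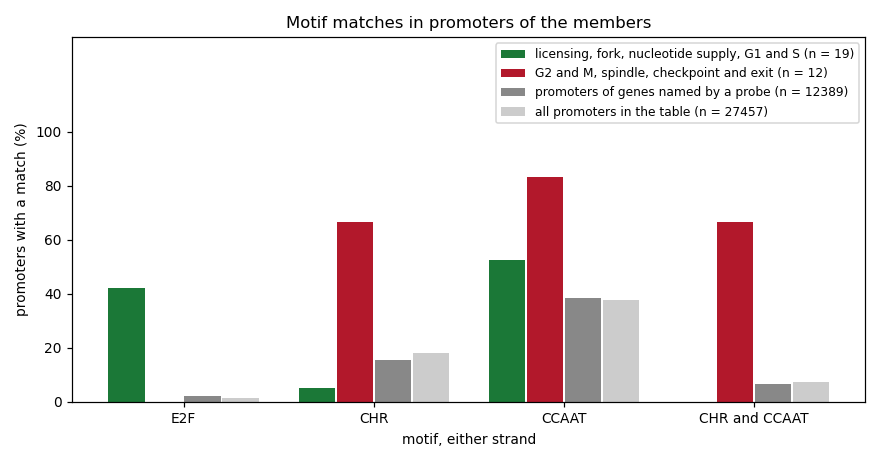
Share of promoters (percent, axis from 0) with a match to each motif on either strand, for the 19 promoters of replication and G1/S members, the 12 of G2/M and spindle members, the genes named by a probe and all promoters in the table. E2F matches stood at 42.1% in the first class and 0 in the second, and CHR matches at 5.26% and 66.7%.

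The labelled tissue was checked against its markers, and 7 of 7 measured epithelial markers were well above background on all arrays. Arrays differed in their 75th percentile signal from 875.355 in rat 16 to 2194.03 in rat 19, an overall shift that the scaling removes. Spots well above background ran from 71.11% in rat 23 to 80.32% in rat 12, with none saturated. The part of these array differences in the results was not tested. Rats 12 and 20, of the DSS-treated Pirc group, had the highest median levels of the members, and both lay in the first row of array positions on their slides, while rats 16 and 24 of the same group lay in the second row. The median of the members, each centered on its mean over all rats, was 0.99 in both rats 12 and 20 against 0.21 in rat 16 and -0.04 in rat 24. Counts of genes passing that rest on these rats are given with and without them. Smooth muscle markers were high in 1 untreated and 1 treated wildtype rat, with summed levels of 2.73 in rat 25 and 3.44 in rat 26 and from -0.68 to 1.81 elsewhere, and the member counts without these rats are given where they differ by more than 1.5 times.

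Genotype was compared first, over both treatments. Transcripts of 17 of the 44 members were enhanced in Pirc rats and none was diminished, where 9.26% of the 30367 probes were higher and 8.27% lower. The 17 were all genes of replication and the G1/S transition: 7 of 9 for licensing and helicase, 4 of 6 for the replication fork, 3 of 4 for nucleotide supply and 3 of 6 G1 and S cyclins and kinases, against 0 of 4 G2/M cyclins and kinase and 0 of 12 spindle, checkpoint and exit genes. The median log2 difference was 0.73 for the 25 replication and G1/S genes and 0.34 for the 16 mitotic ones, beside -0.06 for all probes. The difference between the classes itself was not tested. Without rats 12 and 20, 4 of the 17 members stayed past the threshold, Mcm4 (0.75), Gins1 (0.69), Mcm7 (0.63) and Cdc6 (0.62), and the median of the members was 0.28. Leaving out 1 rat changed the count by more than 1.5 times for rats 12, 15, 20 and 21, with 10 members each, and for rats 14 and 19, with 11 each.

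The helicase that unwinds DNA at the fork is a ring of 6 Mcm proteins. Scaled log2 levels of Mcm2 were -1.60, -0.99, -2.05 and -1.11 in the untreated wildtype rats, -1.63, -1.53, -1.84 and -1.10 in the DSS-treated wildtype rats, -0.91, -0.91, -0.59 and -1.32 in the untreated Pirc rats and -0.34, -0.97, 0.06 and -0.98 in the DSS-treated Pirc rats. Mcm3 stood at 0.43, 1.09, -0.20 and 1.20 in the untreated wildtype rats, 0.73, 0.87, 0.36 and 0.87 in the DSS-treated wildtype rats, 1.10, 1.19, 1.81 and 0.79 in the untreated Pirc rats and 2.20, 1.51, 2.68 and 1.30 in the DSS-treated Pirc rats. Mcm4 had levels of -0.75, -0.44, -1.46 and -0.26 in the untreated wildtype rats, -0.69, -0.46, -0.86 and -0.39 in the DSS-treated wildtype rats, -0.25, -0.05, 0.43 and -0.18 in the untreated Pirc rats and 0.86, 0.44, 1.21 and -0.06 in the DSS-treated Pirc rats. In each of these genes rats 12 and 20 were the highest and the untreated wildtype rat 21 was the lowest. Over both treatments Mcm2 was higher in Pirc rats by 0.74 ± 0.20 (SE, adjusted p = 0.0196), Mcm3 by 0.90 ± 0.24 (adjusted p = 0.0198) and Mcm4 by 0.96 ± 0.20 (adjusted p = 0.00614). A second, dimmer probe passed for Mcm3 (0.94) and Mcm4 (1.19) and fell just short for Mcm2 (0.65, adjusted p = 0.0526).

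Mcm6, another subunit of the ring, did not pass. Its levels were -2.78, -2.10, -3.15 and -1.95 in the untreated wildtype rats, -2.34, -2.05, -2.65 and -1.25 in the DSS-treated wildtype rats, -1.70, -1.89, -1.24 and -2.37 in the untreated Pirc rats and -0.89, -1.85, -0.51 and -1.83 in the DSS-treated Pirc rats, and the difference was 0.75 ± 0.27 (adjusted p = 0.0715). Mcm7 was picked out after its values were seen, since its adjusted p was the lowest of the members: it stood at 0.77, 1.11, 0.58 and 1.20 in the untreated wildtype rats, 0.81, 0.86, 0.62 and 0.98 in the DSS-treated wildtype rats, 1.28, 1.45, 1.71 and 1.39 in the untreated Pirc rats and 2.31, 1.65, 2.58 and 1.41 in the DSS-treated Pirc rats. The 8 Pirc rats lay above all 8 wildtype rats, by 0.86 ± 0.16 on the log2 scale (adjusted p = 0.00381). Because Mcm7 was picked by this comparison, the lack of overlap is no separate result. The share of all probes without overlap over both treatments is not given.

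Cdc45 and Gins1 belong to the proteins that switch the ring on. Cdc45 was found at -0.38, -0.04, -1.0 and -0.02 in the untreated wildtype rats, -0.39, -0.41, -0.63 and -0.31 in the DSS-treated wildtype rats, -0.23, 0.11, 0.84 and 0.09 in the untreated Pirc rats and 1.19, 0.48, 1.37 and -0.03 in the DSS-treated Pirc rats. For Gins1 the levels were -1.71, -1.30, -2.39 and -1.35 in the untreated wildtype rats, -1.64, -1.46, -1.79 and -1.35 in the DSS-treated wildtype rats, -1.23, -0.85, -0.52 and -1.31 in the untreated Pirc rats and 0.07, -0.71, 0.19 and -1.07 in the DSS-treated Pirc rats. Both were enhanced in Pirc rats, Cdc45 by 0.87 ± 0.22 (adjusted p = 0.0144) and Gins1 by 0.95 ± 0.21 (adjusted p = 0.00814). Of the loading factors, Cdc6 was enhanced by 0.79 ± 0.17 (adjusted p = 0.00759), while the difference for Cdt1 was 0.54 ± 0.18 (adjusted p = 0.0537).

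At the fork itself, Pcna forms the clamp that holds the polymerases. Its levels were 1.08, 1.42, 0.85 and 1.41 in the untreated wildtype rats, 1.11, 1.18, 0.88 and 1.35 in the DSS-treated wildtype rats, 1.58, 1.74, 1.86 and 1.20 in the untreated Pirc rats and 2.24, 1.39, 2.32 and 1.32 in the DSS-treated Pirc rats. The untreated Pirc and untreated wildtype rats overlapped, and over both treatments the difference was 0.54 ± 0.17 (adjusted p = 0.0386). The clamp loader subunit Rfc4, the flap endonuclease Fen1 and the ligase Lig1 were enhanced by 0.63, 0.60 and 0.54. The polymerase subunits Pola1 (0.42, adjusted p = 0.314) and Pole (0.60, adjusted p = 0.112) did not pass. Of the nucleotide enzymes, Tyms was enhanced by 0.78, Rrm2 by 0.77 and thymidine kinase Tk1 by 0.73, and Rrm1, the large subunit of ribonucleotide reductase, did not pass (0.26, adjusted p = 0.386). A second, dimmer probe of Rrm2 fell just short (0.79, adjusted p = 0.0548).

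Cyclin E and Cdk2 drive the entry into S phase. The levels of Ccne1 were -1.04, -1.60, -2.56 and -0.89 in the untreated wildtype rats, -1.12, -0.83, -1.24 and -0.77 in the DSS-treated wildtype rats, -0.69, -0.75, -0.41 and -1.23 in the untreated Pirc rats and 0.82, -0.47, 1.01 and -0.63 in the DSS-treated Pirc rats. Those of Ccne2, a dim probe, were -5.20, -5.37, -6.22 and -4.72 in the untreated wildtype rats, -5.49, -5.43, -5.98 and -5.05 in the DSS-treated wildtype rats, -4.25, -4.49, -4.19 and -5.12 in the untreated Pirc rats and -3.64, -4.75, -3.69 and -5.26 in the DSS-treated Pirc rats. Both cyclin E genes were enhanced in Pirc rats, by 0.96 ± 0.28 (adjusted p = 0.0294) for Ccne1 and 1.01 ± 0.27 (adjusted p = 0.02) for Ccne2. Ccnd1, a D-type cyclin of early G1, showed no such difference (-0.10 ± 0.09, adjusted p = 0.445), and stood at 1.34, 1.41, 1.55 and 1.55 in the untreated wildtype rats, 1.37, 1.44, 1.62 and 1.12 in the DSS-treated wildtype rats, 1.55, 1.47, 1.53 and 1.39 in the untreated Pirc rats and 1.03, 1.06, 1.24 and 1.31 in the DSS-treated Pirc rats. Its partner Cdk4 was enhanced by 0.48 ± 0.13 (adjusted p = 0.0177).

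None of the mitotic members passed for genotype. Cdk1, the kinase of mitosis, was measured at 2.02, 1.82, 1.23 and 1.89 in the untreated wildtype rats, 1.57, 1.74, 1.45 and 2.15 in the DSS-treated wildtype rats, 1.58, 2.38, 2.14 and 1.84 in the untreated Pirc rats and 3.06, 2.16, 3.1 and 1.92 in the DSS-treated Pirc rats, a difference of 0.54 ± 0.20 (adjusted p = 0.0781). Ccnb1, its cyclin, was at -0.28, -0.66, -0.95 and -0.83 in the untreated wildtype rats, -0.69, -0.46, -0.66 and 0.05 in the DSS-treated wildtype rats, -1.26, -0.10, -0.95 and -0.22 in the untreated Pirc rats and 0.75, -0.10, 0.62 and -0.21 in the DSS-treated Pirc rats, a difference of 0.38 ± 0.21 (adjusted p = 0.236). Among the transcription factors, E2f1 was at -1.28, -0.82, -1.68 and -0.94 in the untreated wildtype rats, -1.11, -1.29, -1.36 and -1.23 in the DSS-treated wildtype rats, -0.82, -0.92, -0.31 and -1.09 in the untreated Pirc rats and -0.38, -0.82, -0.01 and -1.15 in the DSS-treated Pirc rats, a difference of 0.52 ± 0.18 that fell just short (adjusted p = 0.0522). Foxm1 (0.31) and Mybl2 (0.47) did not pass.

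**Figure D2:**
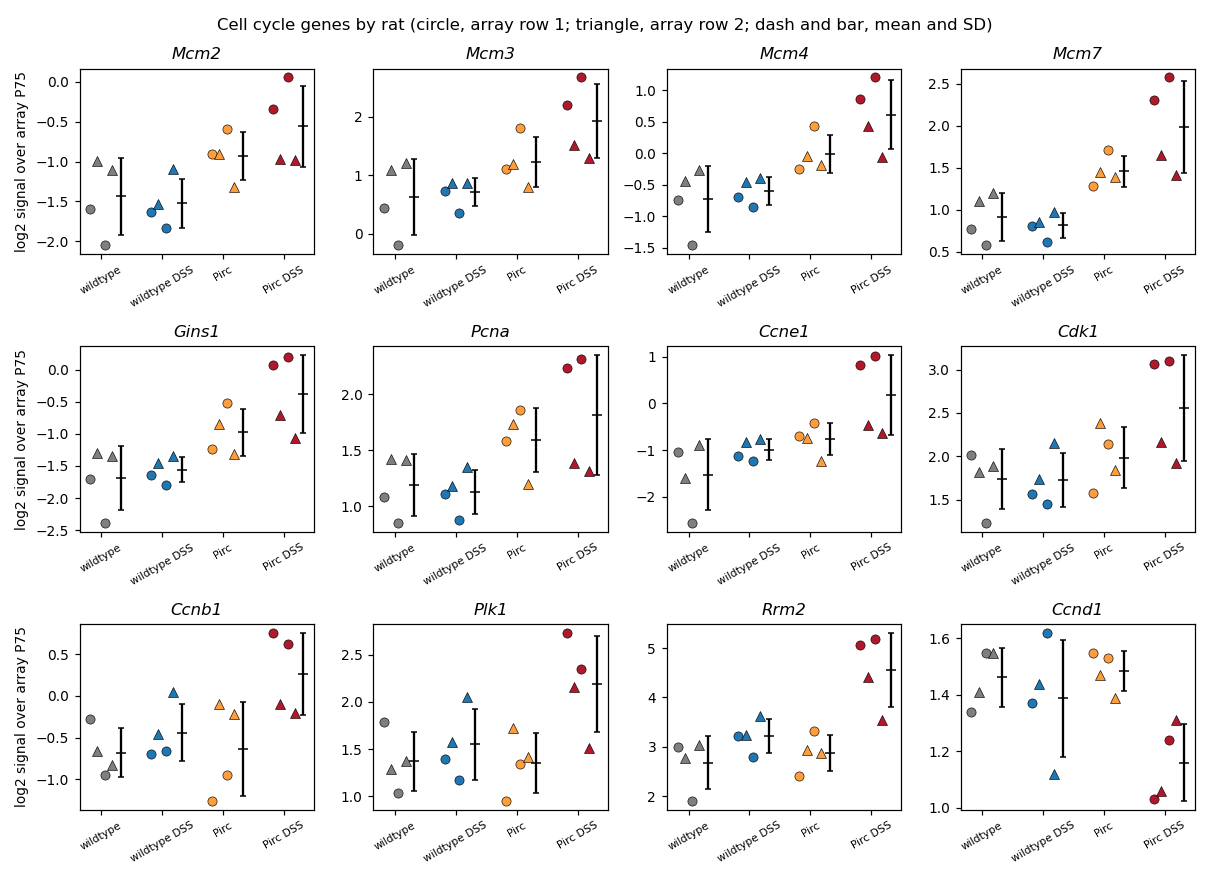
Scaled log2 level (signal over the 75th percentile of the array) of 12 members in each rat, by group, with circles for arrays in the first row of positions and triangles for the second, and a dash with a bar for the group mean ± SD (n = 4). In Mcm7, picked for its adjusted p in this comparison of genotypes, the 8 Pirc rats lie above the 8 wildtype rats. In most panels the 2 circles of the DSS-treated Pirc group, rats 12 and 20, are the highest points.

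In the rats never given DSS, the question is whether the mutation alone goes with a difference. None of the 44 members passed, in a comparison in which limma called 0% of probes higher and 0% lower, and 6 members had an unadjusted p under 0.05, beside 3103 of the 30367 probes. The members still lay mostly above zero, 40 of 44, beside 14523 of the 30367 probes. Their signs come from the same rats and are not independent. The median of the members was 0.24 beside -0.02 for all probes. This median was 0.12 without the untreated wildtype rat 21, 0.42 and 0.15 within the first and second array row, and 0.13 and 0.41 within the slides. By class, the median was 0.49 for the replication and G1/S genes and 0.05 for the mitotic ones, a difference that was not tested. In Mcm4, Mcm7 and Tyms every untreated Pirc rat exceeded every untreated wildtype rat, 3 of 44 members, where 4.69% of all probes did so. Mcm4 differed by 0.72 (95% interval 0.11 to 1.33), Mcm7 by 0.54 and Tyms by 0.73.

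Among DSS-treated rats, 16 of the 44 members were enhanced in Pirc rats and none was diminished, beside 9.47% of probes higher and 8.76% lower. These were 7 of 9 licensing and helicase genes, 2 of 6 fork genes, 2 of 4 nucleotide genes, 3 of 6 G1 and S genes, no G2/M gene and 2 of 12 spindle genes. By class, the median was 0.90 for the replication and G1/S genes and 0.67 for the mitotic ones. The difference between these classes was not tested. Rrm2, the small subunit of ribonucleotide reductase, had the largest difference, and its levels were 3.0, 2.77, 1.90 and 3.04 in the untreated wildtype rats, 3.21, 3.24, 2.80 and 3.63 in the DSS-treated wildtype rats, 2.41, 2.93, 3.31 and 2.87 in the untreated Pirc rats and 5.07, 4.41, 5.19 and 3.55 in the DSS-treated Pirc rats. It differed by 1.34 ± 0.35 (adjusted p = 0.0169), and the next in size were Mcm3 (1.22), Mcm4 (1.21), Cdc45 (1.18) and Gins1 (1.18). The 2 spindle genes were Ube2c (0.90), the ubiquitin carrier of the anaphase-promoting complex, and the kinase Aurka (0.69).

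In 11 members every DSS-treated Pirc rat exceeded every DSS-treated wildtype rat, beside 9.62% of all probes: Cdc6, Mcm2, Mcm3, Mcm4, Mcm7, Cdc45, Gins1, Lig1, Ccne1, Cdc20 and Ube2c. Because the genes were picked by this rule, the place of rats 16 and 24 above the treated wildtype rats in them is no separate result. Without rats 12 and 20 no member passed and the median of the members fell from 0.75 to 0.30, while without rat 24 alone 31 members passed. Shares of all probes passing with rats left out are not given, so these swings may not be particular to the members. Leaving out rat 12, 14, 18, 20 or 22 gave 5, 7, 10, 4 and 6 members. Within the first array row the median of the members was 1.40 and within the second 0.15. Within each slide it was 0.90 and 0.63.

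**Figure D3:**
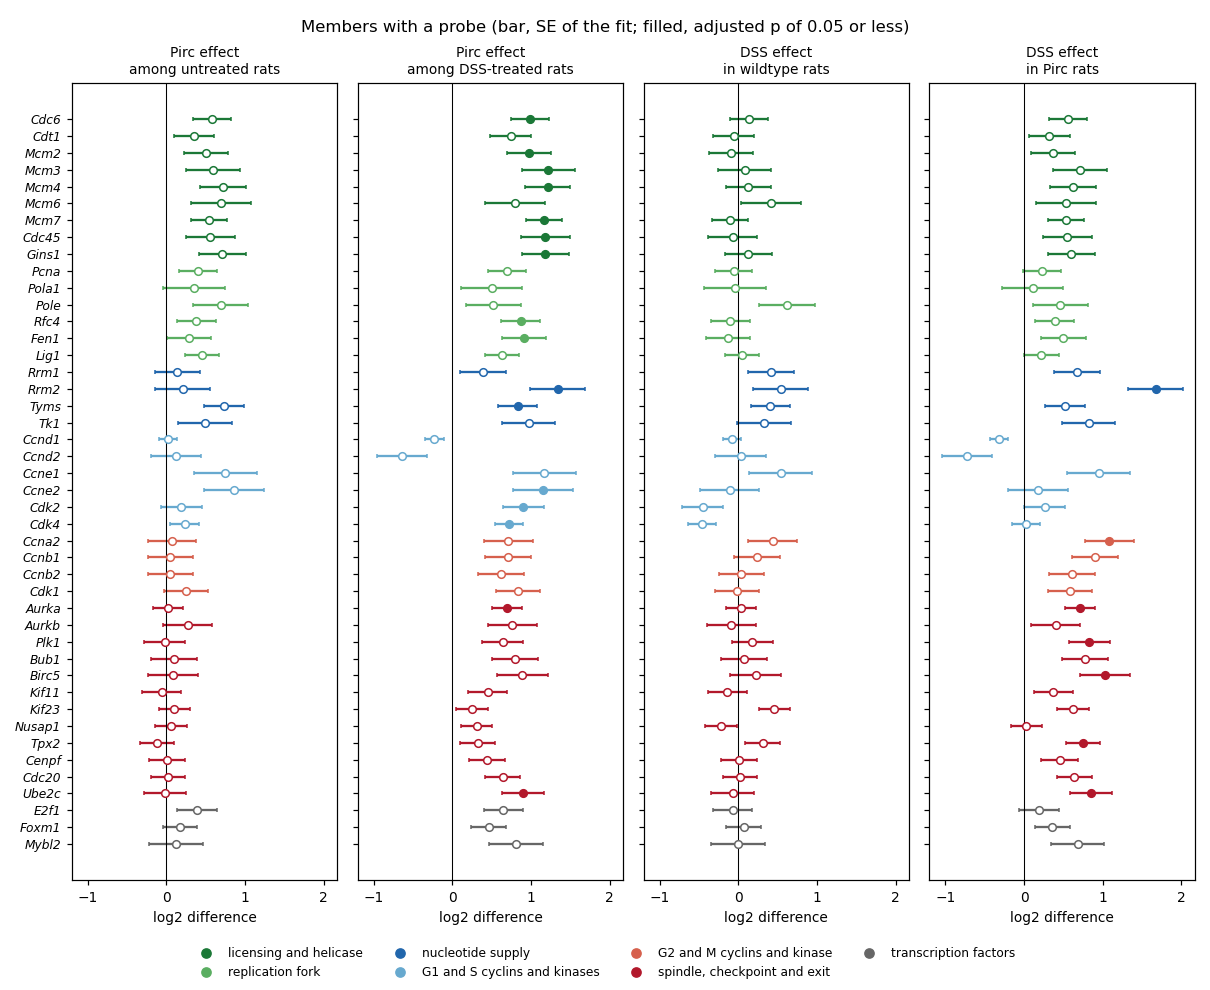
Log2 difference of each of the 44 members in 4 comparisons, colored by role, with bars for the SE of the fit and filled points for an adjusted p of 0.05 or less. The replication genes lie to the right in both Pirc comparisons, while the mitotic genes center near 0 among untreated rats. The difference between the classes was not tested. Filled members number 16 among DSS-treated rats, 2 of them spindle genes, and 0 among untreated rats. Without rats 12 and 20 no member passed among DSS-treated rats. For Pirc among DSS-treated rats the mitotic genes lie to the right as well, with a median of 0.67 beside 0.90 for the replication and G1/S genes.

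Treatment was compared next. Over both genotypes 4 members were enhanced in DSS-treated rats and none was diminished, beside 10.2% of probes higher and 6.99% lower, so that the share of members is close to that of all probes. Rrm2 differed by 1.11 ± 0.25 (adjusted p = 0.00585). Ccna2, the cyclin of S phase and G2, was measured at 0.99, 0.51, 0.15 and 0.73 in the untreated wildtype rats, 0.84, 1.07, 0.71 and 1.51 in the DSS-treated wildtype rats, 0.03, 0.99, 0.75 and 0.87 in the untreated Pirc rats and 2.28, 1.49, 2.27 and 0.91 in the DSS-treated Pirc rats, a difference of 0.76 ± 0.22 (adjusted p = 0.0271). Kif23 was at -0.55, -0.88, -1.24 and -0.87 in the untreated wildtype rats, -0.27, -0.56, -0.64 and -0.23 in the DSS-treated wildtype rats, -1.10, -0.41, -0.63 and -1.0 in the untreated Pirc rats and -0.05, -0.19, 0.13 and -0.56 in the DSS-treated Pirc rats, a difference of 0.54 ± 0.14 (adjusted p = 0.0151). Tpx2, which activates Aurka on the spindle, was at -2.18, -2.41, -2.64 and -2.37 in the untreated wildtype rats, -2.39, -1.95, -2.49 and -1.54 in the DSS-treated wildtype rats, -2.75, -2.24, -2.35 and -2.73 in the untreated Pirc rats and -1.47, -1.93, -1.52 and -2.15 in the DSS-treated Pirc rats, a difference of 0.53 ± 0.16 (adjusted p = 0.028). In Ccna2 rats 12 and 20 stood apart from all others, and in Kif23 and Tpx2 the treated and untreated rats overlapped. A second probe of Foxm1 passed as well (0.49, adjusted p = 0.0342), and its brighter probe, used here, did not (0.21). Without rats 12 and 20 only Rrm2 passed (0.82). Leaving out rat 11, 12, 18, 20 or 21 left 2 members, and leaving out rat 24 left 12.

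Within Pirc rats 7 members were enhanced by DSS and none was diminished, beside 8.14% of probes higher and 6.51% lower. These were Rrm2 (1.67), Ccna2 (1.08) and 5 of the 12 spindle genes, Birc5, Ube2c, Plk1, Tpx2 (0.75) and Aurka (0.71), and they included no licensing, fork or G1/S gene. The medians of the classes lay closer than these calls, at 0.50 for the replication and G1/S genes and 0.68 for the mitotic ones. The difference between the classes was not tested. Birc5 was at 0.67, 0.21, -0.18 and 0.13 in the untreated wildtype rats, 0.24, 0.45, 0.30 and 0.70 in the DSS-treated wildtype rats, -0.38, 0.56, 0.03 and 0.93 in the untreated Pirc rats and 1.85, 0.87, 1.88 and 0.66 in the DSS-treated Pirc rats, a difference of 1.03 ± 0.32 (adjusted p = 0.042). Ube2c was at 0.16, -0.10, -0.54 and -0.29 in the untreated wildtype rats, -0.31, -0.15, -0.49 and -0.10 in the DSS-treated wildtype rats, -0.68, 0.21, -0.33 and -0.07 in the untreated Pirc rats and 1.16, 0.19, 1.18 and 0.02 in the DSS-treated Pirc rats, a difference of 0.85 ± 0.27 (adjusted p = 0.0481). The kinase Plk1 was at 1.79, 1.29, 1.04 and 1.37 in the untreated wildtype rats, 1.40, 1.58, 1.17 and 2.05 in the DSS-treated wildtype rats, 0.95, 1.72, 1.34 and 1.42 in the untreated Pirc rats and 2.73, 2.16, 2.35 and 1.51 in the DSS-treated Pirc rats, a difference of 0.83 ± 0.26 (adjusted p = 0.046).

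In Birc5, Ube2c and Plk1 the treated Pirc rats 12 and 20 were above all untreated Pirc rats and rat 24 lay within their range, as did rat 16 in Birc5 and Ube2c but not in Plk1. The groups did not overlap, treated above untreated, in 2 members, Rrm2 and Tpx2, beside 8.88% of all probes. They did not overlap in the other direction in 2 members, the D-type cyclins Ccnd1 and Ccnd2, beside 8.06% of all probes, with differences of -0.32 ± 0.12 (adjusted p = 0.0992) and -0.73 ± 0.32 (adjusted p = 0.154) that did not pass. The Ccnd2 call turned on the DSS-treated wildtype rat 26, which had the highest smooth muscle level: without it Ccnd2 passed as lower for DSS in Pirc rats (-0.73, adjusted p = 0.0189), for Pirc among DSS-treated rats (-1.05, adjusted p = 0.00608) and for Pirc over both treatments (-0.46, adjusted p = 0.0338). Rat 26 is in neither group compared for DSS in Pirc rats, where the estimate stayed the same. It enters that test through the spread that all groups share. The part of its smooth muscle level was not tested. Without rats 12 and 20 no member passed, and the median of the members was 0.08 in place of 0.54. Leaving out rat 11, 12 or 20 left 1 member, rat 19 left 2, rat 14, 17, 18 or 25 left 4, and rat 24 left 18. Within the first array row the median was 0.97 and within the second 0.07, and with array row as a block 4 members passed.

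In wildtype rats no member passed for DSS, while 2.94% of probes were higher and 0.899% lower. Unadjusted p was under 0.05 for 2 members and 5106 probes, and the median of the members was 0.03 beside 0.09 for all probes. No member had every treated rat above every untreated one, beside 8% of probes. Rrm2 differed by 0.54 (95% interval -0.20 to 1.29) and Mcm7 by -0.10 (95% interval -0.59 to 0.39). No member passed the test of the difference between the DSS effects in Pirc and wildtype rats, with 0.0428% of probes higher and 0% lower, 3 members and 3234 probes at an unadjusted p under 0.05, and an Rrm2 difference of 1.13 ± 0.49 (adjusted p = 0.436).

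**Figure D4:**
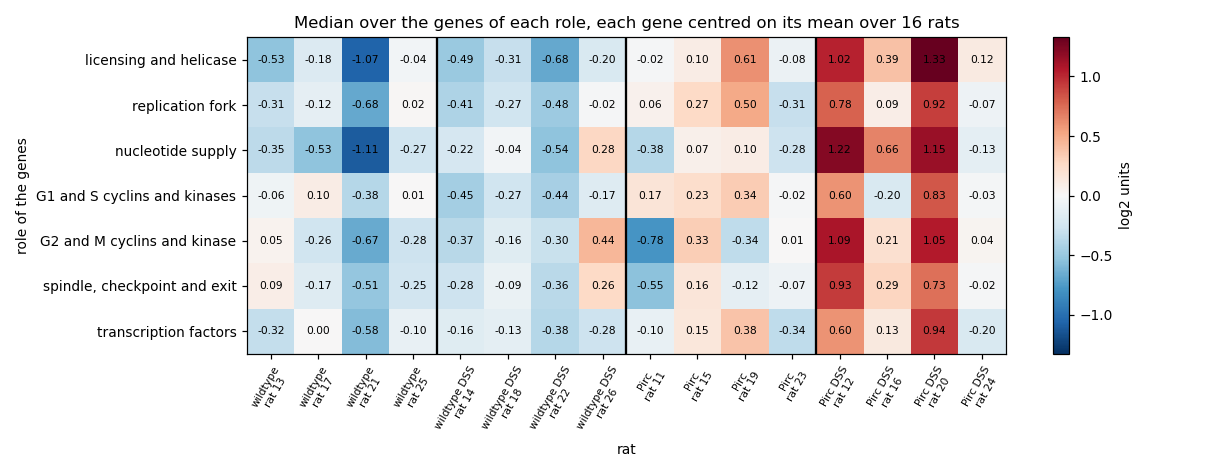
Median over the genes of each role in each of the 16 rats, in log2 units, each gene first centered on its mean over all rats. Rats 12 and 20 of the DSS-treated Pirc group are high in every row, with licensing medians of 1.02 and 1.33, beside 0.39 and 0.12 in rats 16 and 24.

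Of the other cell cycle genes, a list of 127 written from textbook roles, 103 were measured. In Pirc rats over both treatments 35 were enhanced and 3 diminished, beside 9.26% and 8.27% of all probes. The largest rises were Orc1 (1.30), Cdc7 (1.27), Pole2 (1.27), Chek1 (1.23) and Orc6 (1.10), which are the origin recognition subunits, the kinase that fires origins, a polymerase epsilon subunit and the checkpoint kinase of stalled forks. The falls were Cdkn2b (-0.89), Rbl2 (-0.45) and Ccna1 (-0.42). Among DSS-treated rats 28 were enhanced in Pirc rats, led by Orc6 (1.64), Orc1 (1.55), Pole2 (1.44), Chek1 (1.41) and Chaf1b (1.17), and 3 were diminished, Cdkn2b (-1.46), Rbl2 (-0.81) and Tfdp2 (-0.79). None passed among untreated rats. Without rats 12 and 20, 8 were enhanced and 1 diminished (Cdkn2b) over both treatments, and 1 was enhanced (Orc6) and none diminished among DSS-treated rats.

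For DSS the shares of these 103 genes that passed lay below those of all probes, which were 8.14% higher and 6.51% lower in Pirc rats and 10.2% and 6.99% over both genotypes. In Pirc rats 3 rose, Cdkn2a (2.06), Dck (0.84) and Cdkn1c (0.67), and 4 fell, Cdkn2b (-1.02), Rb1 (-0.99), Rbl2 (-0.75) and Tfdp2 (-0.73). Over both genotypes Cdkn2a (1.55), Nek2 (0.73) and Dck (0.71) rose and Rb1 (-0.69), Cdkn1b (-0.50), Rbl2 (-0.39) and Rfc1 (-0.29) fell. Without rats 12 and 20, Cdkn2a alone passed in Pirc rats, and Cdkn2a and Dck over both genotypes. Cdkn2a, which encodes the inhibitors p16 and Arf, was measured at -4.17, -4.24, -4.45 and -4.76 in the untreated wildtype rats, -3.11, -3.50, -2.36 and -4.44 in the DSS-treated wildtype rats, -4.28, -4.58, -4.81 and -4.48 in the untreated Pirc rats and -3.23, -2.84, -2.14 and -1.72 in the DSS-treated Pirc rats. Cdkn2b, the neighboring inhibitor p15, was at 1.08, 1.44, 2.09 and 1.43 in the untreated wildtype rats, 1.80, 1.47, 1.76 and 1.48 in the DSS-treated wildtype rats, 1.59, 1.33, 1.09 and 0.78 in the untreated Pirc rats and 0.07, 0.52, -0.59 and 0.68 in the DSS-treated Pirc rats. The DSS-treated Pirc rats lay above the untreated Pirc rats in the first and below them in the second, with no overlap. Of all probes, 8.88% lay above and 8.06% below without overlap. Both genes had passed in this comparison, so the lack of overlap is no separate result. The other measured inhibitors, Cdkn1a, Cdkn2c and Cdkn2d, passed in no comparison.

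Some markers of other cells passed for genotype and for DSS. Their calls without rats 12 and 20 are not given. In Pirc rats over both treatments 3 of 5 crypt base markers were enhanced, Ascl2 (0.91), Axin2 (0.75) and Smoc2 (0.45), and their summed log2 level ran from 2.11 to 2.83 in the 8 Pirc rats and from 1.59 to 2.59 in the 8 wildtype rats. Of 7 epithelial markers 3 were diminished, Vil1 (-0.49), Cdh1 (-0.43) and Krt8 (-0.33). So were 2 of 6 absorptive and 1 of 4 goblet markers. Of the neutrophil markers 2 of 4 were enhanced, with a median of 1.39 over the list, and of the T and NK cell markers 1 of 7. Of all probes, 9.26% were higher and 8.27% lower. With DSS, over both genotypes, 5 of 5 fibroblast, 4 of 4 squamous and 3 of 4 neutrophil markers were enhanced. So were the leukocyte marker Ptprc (1.90), 2 of 5 macrophage, 1 of 7 T and NK cell and 2 of 3 B cell markers, among them Cd79b (1.84). Diminished were 1 of 4 goblet and 1 of 5 smooth muscle markers. Of 6 absorptive markers 1 was enhanced and 1 diminished. Of all probes, 10.2% were higher and 6.99% lower. In Pirc rats alone 2 of 3 B cell markers were enhanced, Cd79b by 2.56. Of 4 germinal center markers, a site of dividing B cells, 0 passed in any comparison.

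Summed levels of goblet and absorptive cell markers were lowest in the rats with the highest member levels. The summed log2 level of 4 goblet cell markers was 6.98 and 6.55 in rats 12 and 20, beside 7.46 and 7.55 in rats 16 and 24 and 7.24 to 7.98 over all 14 other rats. For 6 absorptive cell markers it was 6.75 and 6.31, beside 7.33 and 6.92 and 6.92 to 8.13. The sum follows the brightest markers. As a median of centered levels, the absorptive markers stood at -0.53 and -1.54 in rats 12 and 20. By that measure rat 12 was not among the lowest, beside -0.54 in rat 24 and -0.59 in rat 19. The sum of 7 epithelial markers was 8.51 in rat 12 and 8.17 in rat 20, beside 8.20 to 8.94 in the 14 other rats. For Pirc among DSS-treated rats 1 of 4 goblet markers, Clca1 (-1.97), and 2 of 6 absorptive markers were diminished. Neutrophil sums were 3.19 and 5.05 in rats 12 and 20 and 5.23 and 4.01 in rats 16 and 24, fibroblast sums 2.42 and 2.35 against 3.83 and 3.16, and smooth muscle sums -0.32 and -0.68 against 1.81 and -0.13. The part of these markers in the results was not tested.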

How the data were processed

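RNA from normal distal colon of 16 rats was hybridised by the authors to 1-color Agilent arrays, whose deposited files hold spot intensity after background subtraction by Feature Extraction 10.7.3.1 on probes annotated to rn4. Control spots (4259 of 62976) and outlier-flagged spots were left out, spots of a probe were averaged (25 probe values had every spot flagged and kept all), and log2 intensity was taken minus the log2 75th percentile of each array, over 30367 probes. Accessions were matched to RefSeq symbols, which named 18006 probes and 15159 genes. Each gene was read from its probe with the highest mean intensity.

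Group means were fitted to all 16 arrays with limma 3.58.1 in R 4.3.3, and p-values were adjusted by Benjamini-Hochberg across the whole table. A probe passed at an adjusted p of 0.05 or less, at any size. "Enhanced" and "diminished" are used of transcripts that passed. The 2 slides held 2 rats of each group, and each group had its own column of array positions, so that an effect of column cannot be told apart from one of group. No pair of arrays held identical values. The labels name separate rats as replicates. The arrays' number limits the precision. The fit was tested on simulated data.

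Members and lists were chosen with earlier results of these data known. All members are accounted for by role. Given rat by rat were Pcna, Mcm2, Mcm6, Ccnd1, Ccnb1, Cdk1, Ccne1 and E2f1, and, for each comparison, up to 5 rises and 5 falls among the members that passed. Of the other cell cycle genes, the inhibitors of cyclin-dependent kinases and up to 5 rises and 5 falls were named.

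The alternatives were quantile normalization, normexp background correction (offset 50, on median signals) with quantile normalization, dim probes left out, blocks for slide or for array row, a factor of 2, spots with outlier flags retained, fits to the groups under comparison alone, a linear model without moderated variances, all probes of a gene averaged, and each rat left out. Leaving out both DSS-treated Pirc rats of the first array row (rats 12 and 20, which had the highest levels), for the members and the other cell cycle genes, or both wildtype rats with the most smooth muscle transcript, was chosen after seeing the data.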

Additional observations from a re-analysis of the deposited data

How the results depend on the processing

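No member that passed changed its direction under any alternative, though 2 members that did not pass were called lower under some: Ccnd1 for DSS in Pirc rats without moderated variances (-0.32) and Ccnd2 without rat 26. The comparisons with no member passing (DSS in wildtype rats, Pirc among untreated rats and the difference between the DSS effects) stayed at 0 under each. The main limit is the dependence on 2 DSS-treated Pirc rats, 12 and 20. Without both, the counts of members passing were 1 in place of 4 for DSS over both genotypes, 0 in place of 7 for DSS in Pirc rats, 4 in place of 17 for Pirc over both treatments and 0 in place of 16 for Pirc among DSS-treated rats. Leaving out each rat in turn gave 2 to 12, 1 to 18, 10 to 22 and 4 to 31. Of the 17 members enhanced in Pirc rats over both treatments, 10 passed in all 16 of these fits, and of the 7 enhanced by DSS in Pirc rats, 1 did (Rrm2). Shares of all probes passing under the alternatives are not given, so the shifts in these counts may not be particular to the members. Asking for a factor of 2 left 1, 3, 1 and 7. With only the compared groups fitted, 1 member passed for DSS in Pirc rats and 4 for Pirc among DSS-treated rats. With array row as a block 4 passed for DSS in Pirc rats. With dim probes left out, 25 passed for Pirc among DSS-treated rats. Without both wildtype rats with the most smooth muscle transcript, 2 passed for DSS over both genotypes. The causes of these shifts were not tested. No paired analysis was possible because the rat numbers in the labels are unique to each rat and shared by no 2 groups.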
